A study of Mus musculus with 178 samples.

Results

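Endothelial cells of injured mouse muscle were compared between day 3 and day 2 after notexin, a venom toxin that kills muscle fibres when injected. The comparison takes the wild-type libraries whose titles name those days, 6 of day 2 and 5 of day 3, which is 11 of the 178 libraries of the series and 11 of its 31 wild-type endothelial libraries. Cells came from digested tibialis anterior muscle of wild-type mice on a B6 background that carry an EGFP reporter of PDGFRa, a stromal gene, and were sorted as CD45-/CD31+. Both days share genotype, reporter, toxin and gate, and no age is given. The labels do not say that replicates are separate animals, so p-values measure only the spread between libraries. Values are read counts of messenger RNA per gene, given below as CPM, counts divided by the scaled size of their library.

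Endothelial cells line the capillaries that feed muscle fibres, and after injury they both rebuild the network and admit leukocytes. Apelin, encoded by Apln, is a secreted peptide of sprouting capillaries that acts on the receptor Aplnr. Sterol levels are held by a pair of opposed programs. SREBP2 switches on cholesterol synthesis when sterols are short, and the liver X receptors switch on sterol export when sterols are in surplus. Interferons raise antiviral genes and the MHC class I machinery that displays peptides to T cells.

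Library depth ranged from 4944303 to 23612344 reads counted in genes. The 11 endothelial markers (Cdh5, Pecam1, Kdr and others, of which Pecam1 encodes the gate's CD31) summed to between 9097 and 19520 CPM in 10 libraries and to 4614 CPM in day 3 library 5. The 10 stromal progenitor markers summed to 31730 CPM in that library, to between 236 and 445 CPM in the other day 3 libraries and to between 162 and 10060 CPM at day 2. Pdgfra stood at 518 CPM in day 3 library 5, at no more than 8.07 CPM in the other day 3 libraries and at up to 299 CPM at day 2, in library 6. Day 3 library 5 thus held more stromal and less endothelial RNA than any other library here, and results are given with and without it. Day 2 libraries 4 to 6 held 1531, 2138 and 10060 CPM of the stromal markers. All 10 stromal markers were positive with all libraries (median log2 fold change 1.19) and all 10 negative without library 5 (median -2.57). Leaving out library 5 thus turns the stromal difference between the days and does not remove it. A code of unknown meaning, R52, marks day 2 libraries 4 to 6 and day 3 libraries 4 and 5. Values given below for R52 libraries alone thus include day 3 library 5, and the code and that library cannot be told apart in them.

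Markers of other cell types also differed in level between the days. The 9 macrophage markers summed to between 236 and 2073 CPM at day 2 and between 799 and 3618 CPM at day 3, and the 6 myogenic progenitor markers to between 1.04 and 28.6 CPM and between 11.3 and 88.5 CPM. The 9 pericyte and smooth muscle markers ran the other way, from 224 to 2879 CPM at day 2 and from 102 to 1571 CPM at day 3. These 3 ranges overlapped between the days. Of the macrophage markers 8 were positive and 1 negative, all 9 pericyte and smooth muscle markers were negative, and none of either list was at 0 in every library. All 6 leukocyte markers were positive, with sums of 125 to 650 CPM at day 2 and 275 to 1886 CPM at day 3, and so were all 7 lymphocyte markers, at 2.90 to 10.8 CPM and 2.76 to 44.1 CPM. The lymphocyte median was -0.79 in R52 libraries alone and 2.27 in the others. Their part in the results below was not tested except where a value is given. In bulk libraries, fewer cells of a type and less RNA per cell cannot be told apart.

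**Figure D1:**
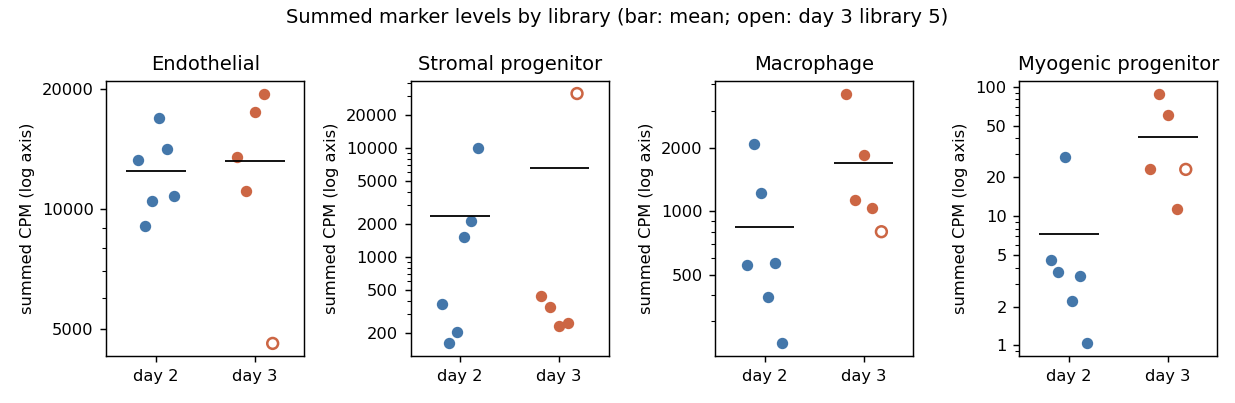
Summed CPM of endothelial, stromal progenitor, macrophage and myogenic progenitor markers (log axes) in each of the 6 day 2 and 5 day 3 endothelial libraries, with bars at the means. The open circle, day 3 library 5, is lowest for endothelial markers (4614 CPM) and highest for stromal markers (31730 CPM).

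A single gene was called between the days with all libraries, and it was Apln, which fell. A gene was called where edgeR's quasi-likelihood test gave a Benjamini-Hochberg adjusted p under 0.05 over all genes tested. Of 15603 genes tested, 0 were called higher at day 3 and 1 was called lower (0.00641% of those tested), while 1362 had an unadjusted p under 0.05. DESeq2 on the same libraries called 54 higher and 20 lower (0.478%). The median standard error of a log2 fold change was 0.40, and the median fold change over all genes was 0.10 on the log2 scale.

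Apln lies on chromosome X (chrX:48025146-48034853, minus strand, GRCm38). It stood at 112, 156, 201, 186, 149 and 166 CPM in day 2 libraries 1 to 6 and at 49.1, 35.3, 32.7, 44.65 and 43.1 CPM in day 3 libraries 1 to 5. Every day 3 library lay below every day 2 library, day 3 library 5 included. The mean went from 162 ± 31.1 CPM (SD, n = 6) to 41.0 ± 6.77 CPM (SD, n = 5), a 3.90-fold fall. The log2 fold change was -1.96 ± 0.30 (SE) with an edgeR adjusted p of 0.0108, and -1.97 with an adjusted p of 0.027 without day 3 library 5. Within the R52 libraries alone it was -2.02 and within the others alone -1.97, with the call lost in both (adjusted p = 1 and 0.0666). The call was also lost with the replicate number as a block (adjusted p = 0.171). It was lost without day 3 library 2 (adjusted p = 0.0625) or library 3 (adjusted p = 0.0596), with the log2 fold change at -1.90 and -1.92. It was also lost without the pair of day 2 libraries whose codes name another day than their titles (adjusted p = 0.0712). The gene Xist stood above 10 CPM in day 2 library 1 and day 3 libraries 2 and 4 only. With that split as a covariate, the log2 fold change of Apln was -1.91 (edgeR adjusted p = 0.0307). Below, a value after ± is the SD of 6 libraries at day 2 and 5 at day 3 unless another is named.

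On the other days, Apln stood at 25.04 ± 9.14 CPM in undamaged muscle (SD, n = 4), 576 ± 370 CPM at day 1 (SD, n = 3) and 43.6 ± 8.39 CPM at day 4 (SD, n = 2). Pdgfra ran from 2.35 to 1328 CPM in the day 1 libraries, and the part of stromal RNA in day 1 levels was not tested. Apln was higher again at day 5 (103 ± 73.1 CPM, n = 2), day 6 (103 ± 2.82 CPM, n = 3) and day 10 (100.4 ± 6.96 CPM, n = 2), with 41.8 ± 9.59 CPM at day 7 (n = 3) and 71.1 CPM in the single day 14 library. Day 3 lay near the day 4 level and above the highest undamaged library (36.2 CPM) in 3 of its 5 libraries. The receptor gene Aplnr was not called. It stood at 975 ± 383 CPM at day 2 (SD, n = 6) and 1344 ± 816 CPM at day 3 (SD, n = 5).

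The other genes of sprouting did not follow Apln past the test. Of the 16 tip cell and sprouting genes tested, Apln was the only member called, 7 were positive and 9 negative, and the median was -0.11 on the log2 scale. Angpt2, a vessel destabilizing ligand of the Tie2 receptor, stood at 101 ± 57.1 CPM (SD, n = 6) and then 41.5 ± 16.6 CPM (SD, n = 5), with an edgeR adjusted p of 0.394. Pgf, a ligand of the VEGF receptor Flt1, stood at 104 ± 45.6 CPM and 36.6 ± 16.2 CPM, with an edgeR adjusted p of 0.356. Of the 15 VEGF and Tie ligands and receptors, 0 were called by edgeR, 2 had an unadjusted p under 0.05 (1362 of 15603 over all genes), and the median was -0.25. Among them Kdr, the main VEGF receptor, stood at 822 ± 158 CPM and 574 ± 197 CPM, with an edgeR adjusted p of 0.686. The 95% interval of the log2 change of Kdr ran from -1.14 to 0.18, so the failed test does not show that it held level.

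Without day 3 library 5, 26 of 15550 genes were called (0.167%), 20 higher (0.129%) and 6 lower (0.0386%) at day 3. These genes, other than Apln, were chosen after their values were seen, since the rule for named genes asked for a call with all libraries as well. Of the 26, 25 had the same direction with all libraries, Naalad2 being the exception, and in 24 the 6 day 2 and 4 remaining day 3 libraries did not overlap, as in 4.08% of all genes (2.08% higher and 2.01% lower at day 3). The test that called the 26 used these same libraries, so their lack of overlap is no further support. With library 5 put back, the days did not overlap for 11 of the 26, as in 0.942% of all genes (0.385% lower). The number was not stable: leaving out a further library gave between 0 and 30 calls, and it was 0 without day 2 library 3 or 6, or without day 3 library 1 or 3. DESeq2 called all 26, among 519 genes (3.62%), against 0.478% with all libraries. By edgeR 2504 of the 15550 genes had an unadjusted p under 0.05, against 1362 of 15603 with all libraries. Counts of list members below stand beside these shares of all genes. Without library 5 all 10 stromal markers were negative, as given above, and their part in the 26 calls was not tested.

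**Figure D2:**
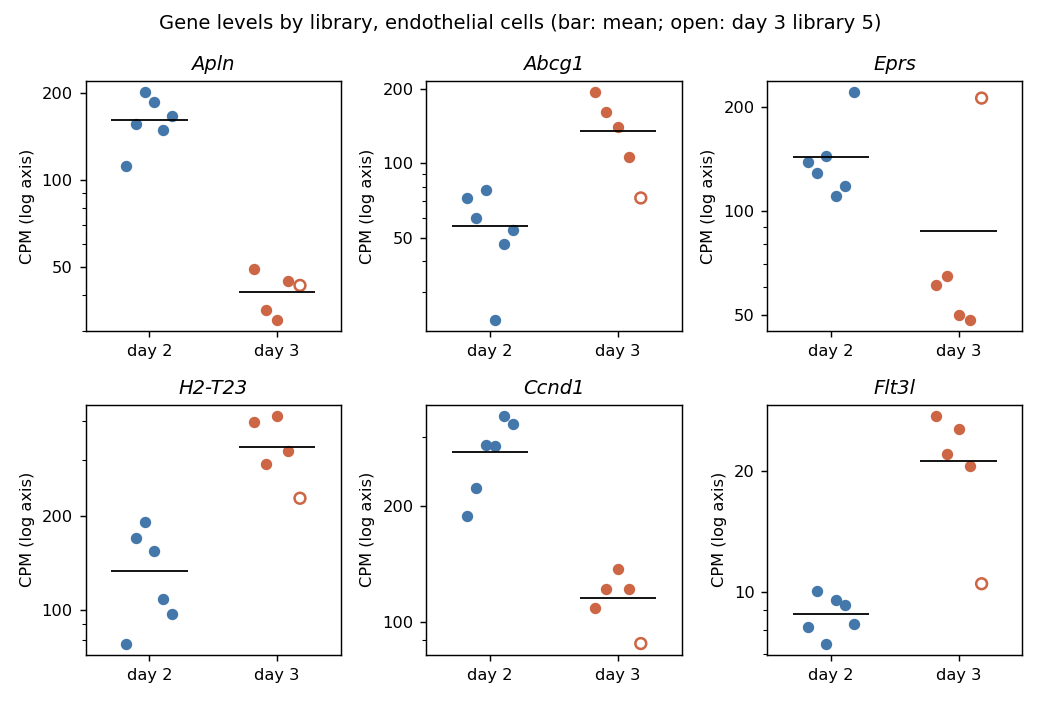
CPM (log axes) of 6 genes in each endothelial library, with bars at the means and day 3 library 5 as an open circle. Apln is lower in all 5 day 3 libraries, while for Eprs library 5 (212 CPM) lies within the day 2 range.

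Without library 5, Abcg1 and Tmem86a of sterol and lipid handling rose, while most genes of cholesterol synthesis had lower values at day 3 and edgeR called none of those listed. Abcg1 (chr17:31057675-31117988, plus strand), a transporter that exports cholesterol and a target of the liver X receptors, stood at 72.1, 59.7, 78.2, 23.2, 47.0 and 53.7 CPM at day 2 and 193, 161, 140.2, 106 and 72.2 CPM at day 3. The 4 day 3 libraries other than library 5 lay above all of day 2, and library 5 lay among the day 2 libraries. Without library 5 it rose 2.77-fold, a log2 fold change of 1.47 ± 0.27 (SE; edgeR adjusted p = 0.028), and with all libraries the value was 1.33 (adjusted p = 0.109). It was 1.02 within the R52 libraries and 1.27 within the others. Tmem86a, which encodes a lysoplasmalogenase and is a known liver X receptor target in mouse macrophages, rose 3.87-fold without library 5 (log2 1.95 ± 0.35; edgeR adjusted p = 0.027). Its libraries ranged from 9.56 to 33.3 CPM at day 2 and from 26.0 to 102 CPM at day 3. Nr1h3, which encodes liver X receptor alpha, ranged from 10.4 to 18.8 CPM at day 2 and from 19.8 to 61.7 CPM at day 3, with no overlap, but missed the edgeR call in both fits (adjusted p = 0.17 and 0.0671), while DESeq2 called it with all libraries (adjusted p = 0.0147). Mylip, which encodes a ubiquitin ligase and is a target of the liver X receptors, stood at 102 ± 40.5 and 185 ± 66.9 CPM and was not called (edgeR adjusted p = 0.459). The macrophage marker sums given above were also higher at day 3, with overlap, and their part in these genes was not tested.

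Of 14 cholesterol and fatty acid synthesis genes, 12 were negative with all libraries and 13 without library 5, with medians of -0.79 and -1.01 on the log2 scale against 0.10 and 0.02 over all genes. By edgeR 0 were called in either fit, 9 and 11 had an unadjusted p under 0.05, and DESeq2 called 0 with all libraries and 4, all lower, without library 5. Over all genes 1362 of 15603 and 2504 of 15550 had such a p by edgeR, and DESeq2 called 0.478% and 3.62%. The median was -0.62 in R52 libraries alone and -0.59 in the others. The summed level of the list ran from 568 to 1702 CPM at day 2 and from 522 to 951 CPM at day 3, so the days overlapped.

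Among these genes, Hmgcs1, which makes the HMG-CoA that enters the sterol pathway, stood at 59.5, 66.5, 51.0, 32.95, 41.0 and 83.1 CPM at day 2 and 23.5, 34.8, 20.3, 7.27 and 77.2 CPM at day 3. Sqle, the squalene epoxidase, stood between 9.63 and 58.9 CPM at day 2 and between 1.96 and 23.3 CPM at day 3. Neither was called by edgeR (adjusted p = 0.553 and 0.453, and 0.076 and 0.0806 without library 5), while DESeq2 called both without library 5 (adjusted p = 0.00475 and 0.00277). In both genes day 3 library 5 was the highest of its day, and within day 2 the most stromal library, library 6, was the highest. Srebf2, which encodes SREBP2, stood at 131 ± 61.8 and 63.4 ± 20.9 CPM and was not called (edgeR adjusted p = 0.481). Both fits gave these 3 genes a negative sign. Insig1, which holds SREBP in the endoplasmic reticulum, stood at 40.4 ± 9.16 and 26.3 ± 7.79 CPM (edgeR adjusted p = 0.453).

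The promoters of Hmgcs1 and Srebf2 are shown because they hold the motif TCACNCCA, the core of the sterol regulatory element, on either strand (capitals). Each runs from 250 bases before to 50 bases after the gene start, from RefSeq on GRCm38.p6. Of the 8 list members with a promoter sequence, 2 held it (25%), as did 4.97% of 27025 genes with one.
Hmgcs1, chr13:119690101-119690400, plus strand: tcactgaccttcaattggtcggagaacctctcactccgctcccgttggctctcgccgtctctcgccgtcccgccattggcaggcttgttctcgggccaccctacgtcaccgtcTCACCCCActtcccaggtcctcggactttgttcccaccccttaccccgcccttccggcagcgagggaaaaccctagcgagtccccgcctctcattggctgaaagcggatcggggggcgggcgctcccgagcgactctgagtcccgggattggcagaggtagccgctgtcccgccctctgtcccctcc
Srebf2, chr15:82147019-82147318, plus strand: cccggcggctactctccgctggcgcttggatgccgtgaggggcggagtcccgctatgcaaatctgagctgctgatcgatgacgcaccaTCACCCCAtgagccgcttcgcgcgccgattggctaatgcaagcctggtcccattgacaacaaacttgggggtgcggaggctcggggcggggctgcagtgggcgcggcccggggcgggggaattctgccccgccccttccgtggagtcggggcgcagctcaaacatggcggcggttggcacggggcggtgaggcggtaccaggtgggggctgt

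Interferon response genes all pointed upward, and edgeR called none of them. The leukocyte and lymphocyte markers given above were positive as well, and their part was not tested. All 26 genes of the list were positive with all libraries and without library 5, where 8970 of 15603 and 7909 of 15550 genes overall were. Their medians were 0.83 and 0.96 on the log2 scale. By edgeR 0 were called in either fit, 11 and 12 had an unadjusted p under 0.05, and DESeq2 called 1 with all libraries and 6 without library 5. Among all genes such a p was found by edgeR in 1362 of 15603 and 2504 of 15550, and DESeq2 called 0.478% and 3.62%. The median was 1.42 in R52 libraries alone and 0.55 in the others. The summed level of the list ran from 1269 to 6256 CPM at day 2 and from 4896 to 8148 CPM at day 3, so the days overlapped.

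The days did not overlap for 3 members, all higher (0.558% of all genes were higher without overlap). Oasl2, an interferon-induced protein related to the oligoadenylate synthetases, stood at 59.0, 110, 185, 103, 40.7 and 241 CPM at day 2 and at 318, 243, 259, 430.5 and 279 CPM at day 3. Rtp4, an interferon-induced chaperone of receptors, ranged from 40.3 to 123 CPM and from 150.3 to 193 CPM. Stat2, which carries the type I interferon signal to the nucleus, ranged from 62.5 to 157 CPM and from 172 to 268 CPM. Their log2 fold changes were 1.34 ± 0.35, 1.05 ± 0.32 and 0.84 ± 0.25 (SE; edgeR adjusted p = 0.253, 0.345 and 0.339), and DESeq2 called Oasl2 (adjusted p = 0.0387). Irf7, the factor that amplifies interferon output, varied widely within a day, from 75.5 to 776 CPM at day 2 and from 347 to 1748 CPM at day 3. Day 2 library 3 was the highest of day 2 for Irf7 and lay inside the day 3 range.

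Promoters of 3 interferon response genes are shown because they hold the motif GAAA, any 2 bases, GAAA, the core of the interferon-stimulated response element, on either strand (capitals, overlapping matches in Oas1a). Of the 19 list members with a promoter sequence, 12 held it (63.2%), as did 3.99% of 27025 genes. Windows and source are those given for Hmgcs1.
Stat2, chr10:128270248-128270547, plus strand: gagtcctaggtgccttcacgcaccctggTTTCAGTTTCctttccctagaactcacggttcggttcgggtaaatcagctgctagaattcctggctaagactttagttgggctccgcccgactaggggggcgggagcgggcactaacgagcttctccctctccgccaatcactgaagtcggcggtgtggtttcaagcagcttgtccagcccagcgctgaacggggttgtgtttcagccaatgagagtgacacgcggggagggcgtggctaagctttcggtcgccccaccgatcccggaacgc
Ifit3, chr19:34583279-34583578, plus strand: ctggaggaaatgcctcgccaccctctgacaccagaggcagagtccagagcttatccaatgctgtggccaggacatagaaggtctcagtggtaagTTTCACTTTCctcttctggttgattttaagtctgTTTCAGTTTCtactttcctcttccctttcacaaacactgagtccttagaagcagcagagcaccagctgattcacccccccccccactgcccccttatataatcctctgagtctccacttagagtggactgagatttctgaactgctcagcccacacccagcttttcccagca
Oas1a, chr5:120907476-120907775, minus strand: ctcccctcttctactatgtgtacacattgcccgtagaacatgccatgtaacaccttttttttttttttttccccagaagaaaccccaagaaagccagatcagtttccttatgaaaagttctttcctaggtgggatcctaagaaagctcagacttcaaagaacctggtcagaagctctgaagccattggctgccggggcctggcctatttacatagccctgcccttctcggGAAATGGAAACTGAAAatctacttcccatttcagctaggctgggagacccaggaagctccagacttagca

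MHC class I genes pointed the same way, and 1 gene of that class was called without library 5. H2-T23 (chr17:36029773-36032855, minus strand), which encodes the non-classical class I protein Qa-1, stood at 78.2, 170.1, 191, 155, 108 and 97.4 CPM at day 2 and at 397, 292, 415, 321 and 227 CPM at day 3. The days did not overlap, library 5 included. Without library 5 it rose 2.73-fold (log2 1.45 ± 0.28; edgeR adjusted p = 0.04), and with all libraries the value was 1.34 ± 0.29 (adjusted p = 0.109), 1.09 within the R52 libraries and 1.37 within the others. Class I genes have near-identical copies, and no source used here says how their reads were divided. The 10 genes of the class I list, which does not hold H2-T23, were all positive in both fits, with medians of 0.77 and 0.88, and 0 were called by edgeR, with 6 and 7 at an unadjusted p under 0.05. DESeq2 called 0 with all libraries and 3 higher without library 5, against 0.478% and 3.62% of all genes. By edgeR 1362 of 15603 and 2504 of 15550 genes overall had an unadjusted p under 0.05. Psmb9, a subunit of the immunoproteasome, stood at 48.6 ± 20.6 and 108 ± 59.1 CPM (edgeR adjusted p = 0.333). Tap1, which carries peptides into the endoplasmic reticulum, stood at 151 ± 67.9 and 281 ± 92.0 CPM (edgeR adjusted p = 0.4). The classical molecule H2-K1 stood at 1055 ± 246 and 1656 ± 391 CPM (edgeR adjusted p = 0.513). All 6 MHC class II genes were positive in both fits too, with medians of 1.48 and 1.69, and 0 were called by edgeR, with 2 and 5 at an unadjusted p under 0.05, or by DESeq2. Their days did not overlap for 0 members with all libraries and for 4, all higher, without library 5. Of all genes, 0.558% and 2.08% were higher without overlap. Their median was 0.43 in R52 libraries alone, which include library 5, and 2.08 in the others. Macrophages express class II genes, and the macrophage marker sums given above were also higher at day 3; their part was not tested.

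The cyclin gene Ccnd1 was called lower without library 5. Ccnd1 (chr7:144929931-144939925, minus strand), cyclin D1 of the G1 phase, stood at 188, 222, 287, 285, 341 and 326 CPM at day 2 and at 109, 122, 137, 122 and 88.2 CPM at day 3. All 5 day 3 libraries lay below all of day 2. Without library 5 it fell 2.21-fold (log2 -1.14 ± 0.24; edgeR adjusted p = 0.0495), and with all libraries the log2 fold change was -1.23 (adjusted p = 0.109), -1.69 within the R52 libraries and -0.88 within the others. Its relative Ccnd2 also showed no overlap, from 132 to 225 CPM at day 2 and from 72.6 to 131.4 CPM at day 3, and was not called (edgeR adjusted p = 0.306). Of the 22 S phase and replication genes, 20 were negative with all libraries and 18 without library 5, with medians of -0.36 and -0.46, and 0 were called by edgeR in either fit, with 2 and 3 at an unadjusted p under 0.05. DESeq2 called 0 with all libraries and 2 lower without library 5. The median of the 22 mitosis genes was 0.28 with library 5 and -0.22 without it, so that library sets its sign.

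Ribosome biogenesis gave the same sign in nearly every member. Of 17 genes, 16 were negative in both fits, with medians of -0.63 and -0.54, and 10 and 7 had an unadjusted p under 0.05, but 0 were called by edgeR, and by DESeq2 0 and 2. For all genes the edgeR counts at such a p were 1362 of 15603 and 2504 of 15550, and DESeq2 called 0.478% and 3.62%. Outside that list, Tsr1, a maturation factor of the small ribosomal subunit, fell 2.96-fold without library 5 (edgeR adjusted p = 0.0495), from 34.1 ± 13.9 CPM (SD, n = 6) to 11.2 ± 1.91 CPM (SD, n = 4). Library 5 held 32.2 CPM of it. The nucleolar genes Heatr1, Utp20 and Rrp12 showed no overlap between the days with all libraries. They were not called by edgeR (adjusted p = 0.109, 0.163 and 0.17) and were called lower by DESeq2 on the same libraries (adjusted p = 0.00285, 0.0147 and 0.0122). Heatr1 ranged from 40.1 to 80.7 CPM at day 2 and from 22.9 to 29.2 CPM at day 3, a log2 fold change of -1.02 ± 0.22 (SE). Eprs, which charges transfer RNAs with glutamate and proline, fell 2.51-fold without library 5 (edgeR adjusted p = 0.04), from between 110.4 and 220.4 CPM to between 48.3 and 64.6 CPM. Library 5 held 212 CPM of Eprs, within the day 2 range. Of the 20 cytosolic aminoacyl-tRNA synthetases tested, 16 were negative in both fits, and Eprs alone was called, without library 5.

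The other genes that rose without library 5 cover several roles. Flt3l, the ligand of the receptor Flt3 that sustains dendritic cells, stood at 8.17, 10.05, 7.41, 9.52, 9.23 and 8.29 CPM at day 2 and at 27.5, 22.1, 25.5, 20.6 and 10.5 CPM at day 3. The days did not overlap, although library 5 lay just above day 2. Its log2 fold change was 1.47 ± 0.25 (2.78-fold; edgeR adjusted p = 0.027). Dhrs3, which reduces retinaldehyde to retinol, ranged from 70.4 to 119 CPM and from 129 to 298 CPM, again with no overlap (2.45-fold; edgeR adjusted p = 0.027). Lmo2, a transcriptional adaptor of endothelial and blood cells, ranged from 27.7 to 47.0 CPM and from 50.4 to 91.1 CPM (2.23-fold; edgeR adjusted p = 0.0477). Bmf, a BH3-only protein of apoptosis, ranged from 17.6 to 29.2 CPM and from 41.2 to 119 CPM (2.89-fold; edgeR adjusted p = 0.0477). All 3 of these showed no overlap with library 5 included.

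Rasa4, a GTPase-activating protein of Ras, rose 3.19-fold (edgeR adjusted p = 0.0477), Tcirg1, a subunit of the vacuolar proton pump, 2.24-fold (adjusted p = 0.0495), Usf1, a transcription factor of the E-box, 2.17-fold (adjusted p = 0.0495) and Tmem140 2.46-fold (adjusted p = 0.0495). In these 4 library 5 lay within the day 2 range. Tcirg1, Abcg1, Tmem86a and Dhrs3 had higher means in the sorted inflammatory cells (CD45+/CD31-) than in endothelial cells on both days. At day 3 Tcirg1 averaged 754 CPM there, Abcg1 542 CPM, Tmem86a 407 CPM and Dhrs3 448 CPM. Macrophage markers in the endothelial libraries were also higher at day 3 (8 of 9 positive), and their part was not tested. Flt3l averaged 10.3 CPM in inflammatory cells at day 3, below the endothelial day 3 libraries other than library 5. Library 5 stood at 10.5 CPM, too close to rank. Values of inflammatory cells were scaled together with other populations, while the endothelial values were scaled among endothelial libraries alone. Krt18, a keratin, and Tlr12, a Toll-like receptor, were called at low levels, with at most 5.89 and 3.46 CPM in any library of days 2 and 3. Krt18 reached 18.2 CPM in an undamaged library. Ccdc163, Epb4.1l4aos, 8430408G22Rik and 1500012F01Rik complete the genes that rose, apart from 3 muscle genes. Epb4.1l4aos is named as an antisense transcript, and no source used here says whether strand was used in counting. Naalad2, a peptidase, was called lower without library 5 (log2 -2.75 ± 0.58; edgeR adjusted p = 0.0495), but library 5 held 113.5 CPM of it against 1.52 to 2.87 CPM in the other day 3 libraries, and it averaged 107 CPM in sorted stromal cells at day 3.

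The 3 muscle genes were those of newly forming fibres. Myog, the factor that commits myoblasts to fusion, stood between 0 and 0.848 CPM at day 2 and at 7.79, 36.6, 21.04, 4.26 and 9.33 CPM at day 3. It was called without library 5 (edgeR adjusted p = 0.027) and had an adjusted p of 0.0595 with all libraries. Chrng, the fetal subunit of the acetylcholine receptor, and Myh3, the embryonic myosin heavy chain, were called without library 5 as well (edgeR adjusted p = 0.0477 and 0.0495). Myh3 was at 0 CPM in day 3 library 4 and at 58.35 CPM in day 3 library 2, so its days overlapped. Myog averaged 17.2 CPM in myogenic progenitors at day 2 and 593 CPM at day 3. It also averaged 0.0741 and 9.89 CPM in inflammatory cells and 0.00725 and 6.16 CPM in the stromal cells of the same days, so it was higher at day 3 in every population set beside it here. Whether the Myog counts come from endothelial cells was not tested.

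Of the 18 chemokines and cytokines, 7 were positive and 11 negative with all libraries, and 5 were positive and 13 negative without library 5. Their medians were -0.46 with library 5 and -0.92 without it. By edgeR 0 were called in both fits, with 5 and 10 at an unadjusted p under 0.05, and DESeq2 called 0 with all libraries and 1 higher and 3 lower without library 5. Among all genes 1362 of 15603 and 2504 of 15550 had such a p by edgeR, and DESeq2 called 0.478% and 3.62%. Ccl2, which draws monocytes, stood at 86.5, 129.7, 80.3, 54.1, 61.3 and 118 CPM at day 2 and at 29.6, 14.6, 9.51, 7.67 and 88.1 CPM at day 3. Library 5 was within the day 2 range and the other 4 lay below it. Cxcl16, a membrane-bound chemokine, stood at 50.9 ± 12.0 and 93.0 ± 40.4 CPM (edgeR adjusted p = 0.356). Of the 13 matrix proteases and inhibitors, 7 were positive and 6 negative with all libraries. DESeq2 called 2 lower with all libraries (0.478% of all genes), where edgeR called 0 and gave 4 an unadjusted p under 0.05 (1362 of 15603 over all genes). Adamts4, a protease that cuts versican, stood at 353 ± 278 and 86.9 ± 41.1 CPM (adjusted p = 0.201 by edgeR and 0.0137 by DESeq2), and Adamts9 at 336 ± 149 and 126 ± 44.5 CPM (adjusted p = 0.184 by edgeR and 0.0147 by DESeq2).

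**Figure D3:**
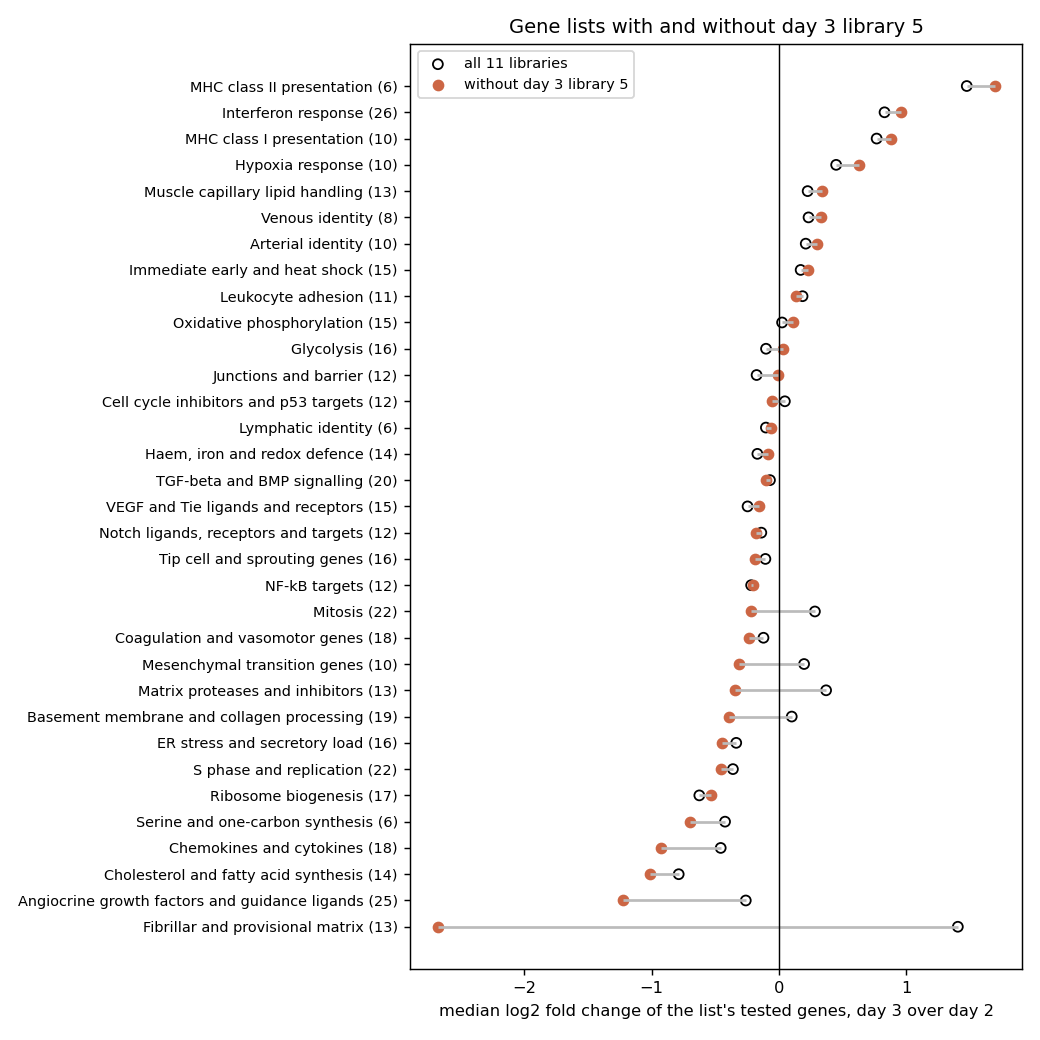
Median log2 fold change of the tested genes of each of 33 gene lists, day 3 over day 2, with all 11 libraries (open) and without day 3 library 5 (filled), with the number of genes tested in brackets. The fibrillar matrix list moves from 1.41 to -2.68, while the interferon list stays at 0.83 and 0.96. Summed levels of the fibrillar list ran up to 30570 CPM at day 2, and its median was -0.42 in libraries without R52 alone.

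Of the 33 gene lists, 7 changed the sign of their median when library 5 was left out. The 13 fibrillar and provisional matrix genes had a median of 1.41 with it and -2.68 without it, and the summed level was 120500 CPM in library 5 against 1134 to 1621 CPM in the other day 3 libraries. At day 2 that sum ran from 1273 to 30570 CPM. The medians in R52 libraries alone, which include library 5, and in the others alone were 1.74 and -0.42. By edgeR neither fit called a member, with 2 and 11 at an unadjusted p under 0.05, and DESeq2 called 0 with all libraries and 2 lower without library 5. Over all genes the edgeR counts at such a p were 1362 of 15603 and 2504 of 15550, and DESeq2 called 0.478% and 3.62%. Mitosis, matrix proteases, basement membrane, mesenchymal transition, cell cycle inhibitors and glycolysis were the other lists whose sign turned.

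Levels on the other days place days 2 and 3 within the course after injury. Abcg1 stood at 61.6 ± 11.2 CPM in undamaged muscle (SD, n = 4), 10.4 ± 5.51 CPM at day 1 (SD, n = 3), 55.7 ± 19.6 CPM at day 2 and 134 ± 47.0 CPM at day 3, and its highest mean was 205 ± 38.5 CPM at day 4 (SD, n = 2). Lmo2 stood at 91.5 ± 19.7 CPM in undamaged muscle, 25.5 ± 12.1 CPM at day 1 and 89.0 ± 2.75 CPM at day 4. H2-T23 stood at 246 ± 96.6 CPM, 42.9 ± 23.3 CPM at day 1 and 312 ± 49.9 CPM at day 4. Dhrs3 stood at 238 ± 37.3 CPM, then 61.1 ± 15.8 CPM at day 1. Ccnd1 differed from these, with its lowest mean at day 3 (116 ± 18.3 CPM) and 458 ± 204 CPM at day 5 (SD, n = 2). These are levels with no test, and those of day 1 include a library with 1328 CPM of Pdgfra.

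**Figure D4:**
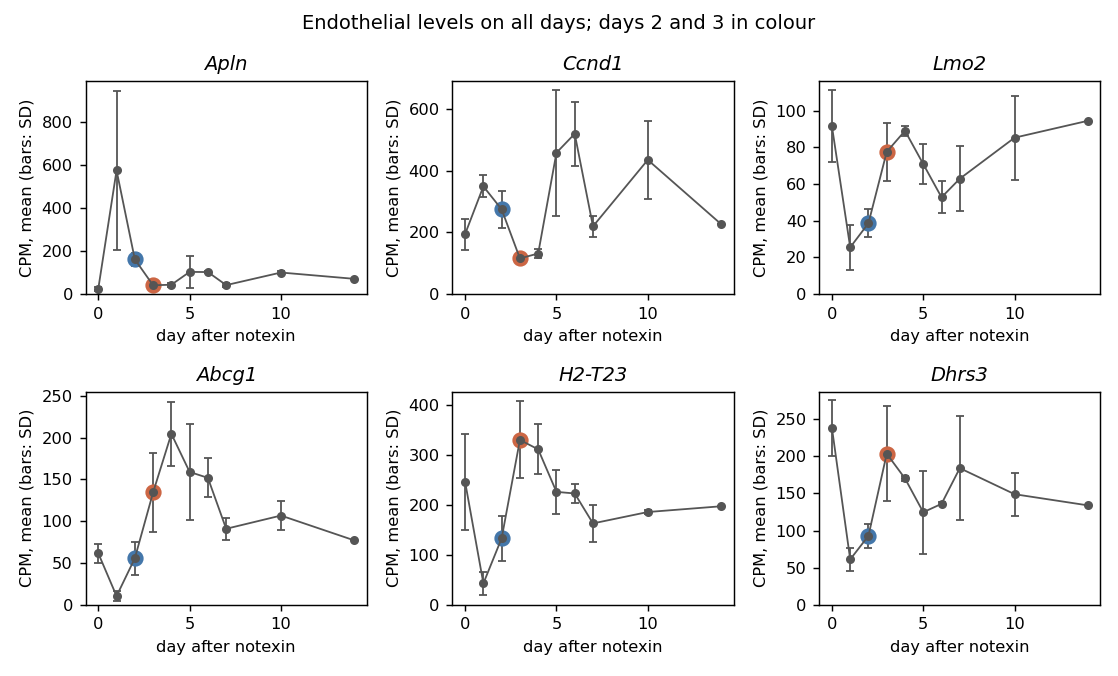
Mean CPM (bars, SD) of 6 genes in wild-type endothelial libraries on each of 10 days, with 1 to 6 libraries a day, day 0 being undamaged muscle and no bar where a day has 1 library. Day 2 (blue) and day 3 (orange) lie on the falling side of the day 1 peak for Apln and on the rising side of the day 1 trough for Abcg1, H2-T23, Dhrs3 and Lmo2. Day 1 has 3 libraries, with up to 1328 CPM of the stromal gene Pdgfra.

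Fibro-adipogenic progenitors (FAP), the stromal cells sorted as CD45-/CD31-/EGFP+, were set beside the endothelial cells to ask which changes differed between them. In a test of the endothelial change minus the FAP change, 3 of 13846 genes were called (0.0217%), all with a lower change in endothelial cells than in FAP. Libraries of the same day and number share a preparation by their codes, and with that pairing as a block 0 genes were called, with 644 at an unadjusted p under 0.05. Without preparation 5 of day 3 in both populations 34 of 13916 were called (0.244%), and without endothelial library 5 alone 70 of 13959 (0.501%).

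Hey1, a target of Notch signalling, had medians of 65.8 and 65.5 CPM in endothelial cells at days 2 and 3 and of 4.08 and 20.5 CPM in FAP. Its FAP libraries ran from 3.23 to 5.94 CPM and from 13.9 to 33.1 CPM, without overlap, while those of the endothelial cells overlapped between days. The difference of the log2 changes was -2.36 ± 0.38 (SE; edgeR adjusted p = 0.0334), and -2.36 ± 0.46 with the block (adjusted p = 0.198). Sema7a, a membrane-anchored semaphorin, had endothelial medians of 677 and 463 CPM and FAP medians of 28.9 and 86.5 CPM, with a difference of -2.41 ± 0.41 (edgeR adjusted p = 0.0334; 0.109 with the block). Rerg, a Ras-related growth inhibitor, stood at most at 8.85 CPM in any library and differed by -5.65 ± 1.01 (edgeR adjusted p = 0.0469; 0.272 with the block). Neither Hey1 nor Sema7a was called within endothelial cells (edgeR adjusted p = 0.925 and 0.567). Sema7a nevertheless ran there from 644 to 742 CPM at day 2 and from 276 to 601 CPM at day 3, without overlap.

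Apln was lower at day 3 in FAP as well, with medians of 89.8 and 25.7 CPM, and no overlap. Its endothelial change minus its FAP change was -0.26 on the log2 scale, with a 95% interval from -1.01 to 0.50 (edgeR adjusted p = 1), so a difference between the populations was not detectable and is not shown to be absent.

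**Figure D5:**
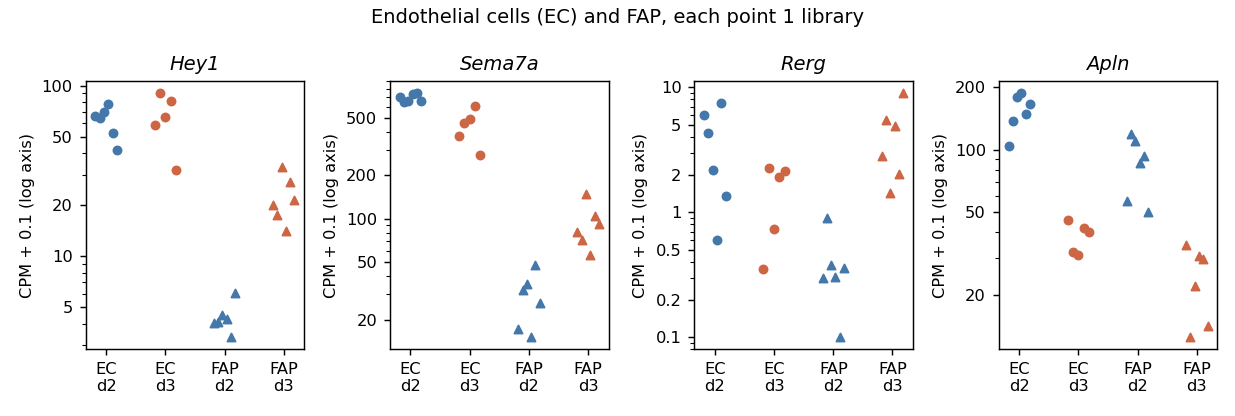
CPM plus 0.1 (log axes) of Hey1, Sema7a, Rerg and Apln in each endothelial (EC, circles) and FAP (triangles) library of days 2 and 3. Hey1 has a median of 4.08 CPM at day 2 and 20.5 CPM at day 3 in FAP, against 65.8 and 65.5 CPM in endothelial cells, and Apln is lower at day 3 in both.

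CCR2KO mice, which lack the chemokine receptor that brings monocytes into injured tissue, gave 1 endothelial library for each of days 2 and 3, with 5980492 and 15141654 counts. These libraries entered no fit, so their values have no replicate check. Apln stood at 261 CPM at day 2 and 28.8 CPM at day 3. Abcg1 stood at 22.1 and 95.5 CPM, H2-T23 at 181 and 370 CPM, and Ccnd1 at 209 and 134 CPM. Of the 26 genes called without library 5 in the wild type, 24 had the same sign here (92.3%), against 58.3% of all 15550 genes. Among genes averaging at least 10 CPM it was 19 of 19, against 64.9% of 9231. The muscle gene Myog was at 0.464 and 96.7 CPM.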

How the data were processed

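Messenger RNA of sorted cells was sequenced as paired reads of 43 bases from a stranded library kit, per the labels' protocols. The authors deposited whole-number read counts per gene, 1 table per population and genotype, and 6 count tables were used here. The submitters' processing notes name bcl2fastq, Bowtie, STAR and mm10; no source used here names the counting tool, annotation or use of strand. Rows for reads with no feature (4.36 to 24.1% of a library) or ambiguous reads (0.501 to 1.12%) were left out. Gene counts per library had a median of 13370746. No pair of libraries of a day was a duplicate (lowest chi-square per gene 12.6).

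The 31 wild-type endothelial libraries were fitted together, with 1 mean per day over 10 days, by the quasi-likelihood test of edgeR 4.0.16 under R 4.3.3 after filterByExpr and TMM normalization, with Benjamini-Hochberg adjustment over all genes and a threshold of 0.05. Columns headed alike on day 5 were matched to their group only. The difference of changes was fitted on 11 endothelial and 12 FAP libraries. Endothelial and FAP libraries of the same day and number share a preparation code, so values with that block stand beside the result. Their deviations from the group means correlated at 0.133 to 0.622 in the 11 pairs. Another FAP library correlated better for day 2 numbers 2 and 6 and for day 3 numbers 2, 4 and 5. Alternatives used DESeq2 1.42.0 and limma 3.58.1. The rule for named genes (called with and without library 5, at least 10 CPM, no overlap) gave Apln alone; others were chosen after their values were seen. Members and lists were chosen with earlier results of these data known. Of 24421 gene symbols, 23384 were found in GENCODE M21 (GRCm38), the source of gene coordinates. The calculations were tested on simulated data. RefSeq promoters matched 37 of 56 genes listed for the text. Results for some genes are not reported here, and the lists leave them out.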

Additional observations from a re-analysis of the deposited data

Results flagged for a closer look

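Among 126 groups of values from 1 day, 20 (15.9%) had a library far from the others by Dixon's criterion, 6 of them in day 3 library 5, 6 in day 2 library 6 and 8 in another library. Chance would flag about 1 in 20 groups of normally distributed values, and CPM were not shown to be so distributed. Several of these genes were also named because they were called only without day 3 library 5, so the share is no test. These 2 libraries also held the highest stromal marker sums of their days, 31730 CPM in day 3 library 5 and 10060 CPM in day 2 library 6. The part of stromal RNA in the values that follow was not tested.

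Day 3 library 5 stood above the other day 3 libraries for Eprs (212.2 CPM), Lars (68.39 CPM), Tsr1 (32.18 CPM), Naalad2 (113.5 CPM) and Ccl2 (88.14 CPM). Day 2 library 6 stood above the other day 2 libraries for Sqle (58.86 CPM), Eprs (220.4 CPM), Rrp12 (48.68 CPM), Mcm3 (150.6 CPM) and Tlr12 (0.04507 CPM, against 0 in the others). Eprs thus stood apart in both of these libraries.

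Elsewhere, Heatr1 was low in day 3 library 2 (22.93 CPM) and Bmf high in day 3 library 4 (118.7 CPM). Krt18 was high in day 2 library 2 (1.547 CPM). Muscle genes stood apart in single libraries, with Myog at 0.8478 CPM in day 2 library 1, Chrng at 0.1545 CPM in day 2 library 3, and Myh3 at 0.58 CPM in day 2 library 2 and 58.35 CPM in day 3 library 2. The myogenic marker sum was high in day 2 library 3 (28.57 CPM).

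The change from day 2 to day 3 differed between endothelial cells and FAP for Hey1 (-2.355 on the log2 scale), Sema7a (-2.413) and Rerg (-5.652) by edgeR without the shared preparation as a block, and for none of the 3 with it.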

How the results depend on the processing

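With all libraries, 1 gene was called. The number was 26 without day 3 library 5 and between 0 and 3 when any other library was left out, so leaving out single libraries gave 0 to 26. It was 2 with RLE scaling, 0 with the replicate number as a block, 0 in R52 libraries only, 2 in libraries without R52 only, 0 without the day 2 libraries whose code names another day, 74 by DESeq2 and 271 by limma voom with library quality weights. It was 34 without day 3 library 5 and day 1 library 3, and 11 with Xist as a covariate and no library 5. Same-numbered libraries of days 2 and 3 correlated at -0.076, 0.329, 0.084, 0.439 and 0.066 in their deviations. Day 3 library 4 alone had its closest day 2 library under the same number, so pairing by number was not shown. Each of the 25 settings gave Apln a log2 fold change between -1.90 and -2.06. Its edgeR adjusted p was 0.0625 without day 3 library 2, 0.0596 without day 3 library 3, 0.171 with the replicate block, 1 in R52 libraries only, 0.0666 in the others only and 0.0712 without the day 2 libraries whose code names another day.

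Starting without library 5, 26 genes were called, and leaving out a further library gave 0 to 30. The number was 2 with no filter on low counts, 13 with days 2 and 3 alone, 519 by DESeq2, 11 with Xist as a covariate, 0 with the replicate block and 6 without the day 2 libraries whose code names another day. For the endothelial change minus the FAP change, 3 genes were called, 0 to 70 with a library left out, 1 with no filter, 13 by DESeq2, 0 with the replicate block of shared preparation and 34 without preparation 5 of day 3. The 0 counts arose without endothelial day 3 library 1 or 3, FAP day 2 library 4, or FAP day 3 library 1 or 6. The causes were not tested.

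Naalad2 alone reversed. Its log2 fold change was 0.63 with all libraries, ran from -2.75 to 0.95 with single libraries left out, and was -2.75 without library 5, -2.75 without it and day 1 library 3, -1.86 with the replicate block, -3.15 in libraries without R52 only, -2.59 with Xist as a covariate and no library 5, and -2.43 by limma voom. The limma fit, and most alternatives to the comparison without library 5, were chosen after seeing the data. With a median standard error of 0.40 on the log2 scale, small changes were not detectable at this depth and number of libraries.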
